A study of Bos taurus with 6 samples.

Results

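Regulators of G protein signalling (RGS proteins) were followed in bovine cumulus cells matured with or without recombinant follicle-stimulating hormone (rFSH). The members were the 10 genes RGS1, RGS2, RGS3, RGS4, RGS5, RGS10, RGS12, RGS14, RGS16 and RGS19, taken with every probe that the platform annotation names for them. They had 14 probes among 43794 bovine probes, and 10 genes among the 15216 named there. Of these, 11 probes of 8 genes were bright enough to test.

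A G protein-coupled receptor loads the alpha subunit of its G protein with GTP, and the signal lasts until the alpha subunit hydrolyses that GTP. RGS proteins carry a domain that speeds up this hydrolysis, mainly on the Gi and Gq families of alpha subunits, and so shorten the signal. The FSH receptor works mainly through Gs and cyclic AMP, a family on which most RGS proteins have little hydrolytic effect, and cumulus cells also carry receptors that use Gi and Gq. RGS1, RGS2, RGS3, RGS4, RGS5 and RGS16 belong to 1 subfamily of mostly small proteins. RGS10, RGS12 and RGS14 form another, whose larger members RGS12 and RGS14 bind further signalling proteins, and RGS19 belongs to a separate one, with a cysteine-rich stretch that anchors it to membranes.

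Cumulus cells are the somatic cells that surround the oocyte. They came from cumulus-oocyte complexes aspirated from slaughterhouse ovaries of Holstein cows and cultured in groups of up to 10 complexes. The treated group received rFSH at 0.5 µg/mL and the control group none, in a medium with estradiol at 1 µg/mL and serum for both. Biological replicates 2, 3 and 4 each went on a dye-swapped pair of arrays, so 6 arrays were measured. The control is labelled 6 h, whereas 22 to 24 h of culture are stated for both groups, so any difference in time between the groups cannot be told apart from that in rFSH. No source used here says how the cumulus cells were parted from the oocyte.

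The share of bovine probes brighter than the negative controls ranged from 38.2% to 83.3% over the channels of the 6 arrays, and precision is limited by there being 3 replicates. The lowest share was that of the control channel of the replicate 2 array with rFSH in Cy3. Across tested probes the arrays of a dye swap correlated at r = 0.495 in replicate 2, 0.722 in replicate 3 and 0.708 in replicate 4. Of 12 cumulus and granulosa markers, 11 could be tested, and AMHR2 did not exceed the negative controls on any array.

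The comparison asked whether rFSH-treated cumulus cells and their controls differed in RGS transcripts. RGS19 transcripts were 1.72-fold higher with rFSH, and none of the other 7 tested genes passed the test in either direction. RGS2 gave the widest spread: its brighter probe was well above the control in replicates 2 and 4 and well below it in replicate 3. RGS12 lay below the control on 5 of 6 arrays but missed the threshold. RGS3 and RGS14 did not exceed the negative controls on any array in either channel.

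In limma with Benjamini-Hochberg adjustment over all 34821 tested probes, 1 of 11 RGS probes was called higher and 0 were called lower. Over all tested probes, 2.97% were called higher, 3.37% lower and 6.34% in either direction. At an unadjusted p under 0.05, 1 RGS probe was higher and 1 was lower, 2 of 11, where 8809 of the 34821 tested probes reached that level. Mean log2 ratios were above 0 for 7 RGS probes and below 0 for 4, with a median of 0.11 against 0.02 over all tested probes. All ratios are log2 of rFSH over control after normalization, each replicate being the mean of its 2 arrays, and levels of different probes are not comparable. In a bulk sample, fewer cells of a type and less RNA per cell cannot be told apart.

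**Figure D1:**
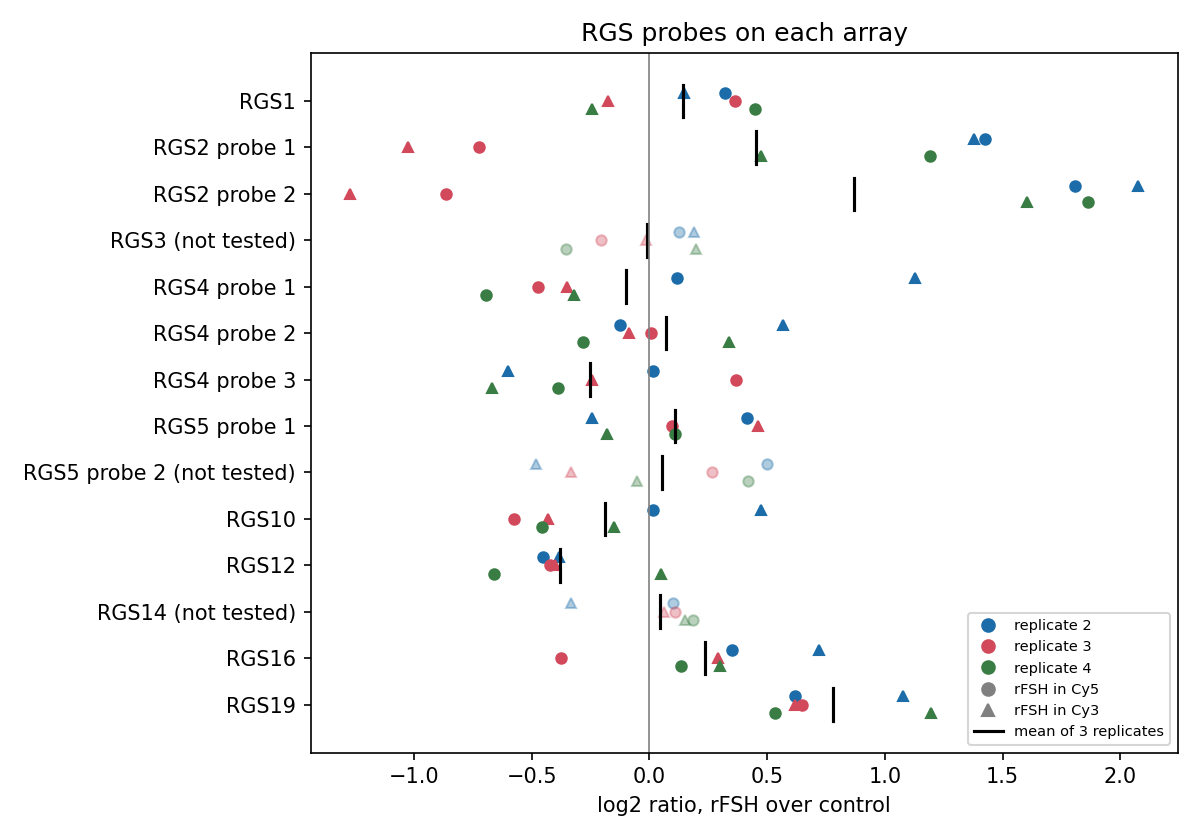
Log2 ratio of rFSH over control (horizontal axis) for each of the 14 RGS probes (vertical axis) on each of the 6 arrays. Colours give the replicate, circles and triangles the arrays with rFSH in Cy5 and in Cy3, black bars the mean of the 3 replicates, and pale points the probes that were not tested; all 6 RGS19 points lie above 0, and the RGS2 points of replicate 3 lie apart from those of replicates 2 and 4.

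RGS19, also known as GAIP, was first found as a partner of the inhibitory subunit encoded by GNAI3 and acts on Gi family subunits. Its log2 ratio was 0.62 with rFSH in Cy5 and 1.08 with rFSH in Cy3 in replicate 2, 0.65 and 0.62 in replicate 3, and 0.53 and 1.20 in replicate 4. All 6 arrays thus lay above 0, and the replicate means of 0.85, 0.63 and 0.87 were close to each other. Normalized log2 intensities were 9.87, 9.94 and 9.69 with rFSH and 9.02, 9.31 and 8.83 in the control of replicates 2, 3 and 4. The groups did not overlap, and the lowest rFSH value lay above the highest control value. The mean log2 ratio was 0.78 ± 0.13 (SD, n = 3), with a 95% interval from 0.54 to 1.03 and an adjusted p of 0.0315 in limma.

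The RGS19 probe was above the negative controls on all 6 arrays in both channels, with raw intensities from 722 to 1319 with rFSH and from 475 to 803 in the control. It was the only RGS probe above 0 on all 6 arrays, a pattern that 9.97% of tested probes showed, while 11.9% were below 0 on all 6. The call needed all 3 replicates. The ratio was 0.75 without replicate 2 (adjusted p = 0.147), 0.86 without replicate 3 (adjusted p = 0.0841) and 0.74 without replicate 4 (adjusted p = 0.0673). Leaving out replicate 2 or 3 left limma with 0 called probes on the whole array, and with 6874 and 7399 at an unadjusted p under 0.05. Testing the channels as unpaired groups gave RGS19 the same ratio with an adjusted p of 0.0553.

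In the authors' deposited table of normalized log2 ratios, turned by the dye labels, RGS19 had 0.89 in replicate 2, 0.66 in replicate 3 and 0.86 in replicate 4. Ranked by the root mean square difference over the 6 arrays, the named genes most like RGS19 among 13055 were MAFF (0.0755), CRTC2 (0.127), ASPA (0.141) and HTRA2 (0.144). MAFF encodes a small Maf transcription factor and had a log2 ratio of 0.79 ± 0.15 (SD, n = 3). CRTC2, a coactivator of the cyclic AMP response factor CREB, had 0.80 ± 0.14. ASPA, the enzyme aspartoacylase, had 0.82 ± 0.13, and HTRA2, a mitochondrial serine protease, had 0.73 ± 0.16. All 4 were called, and like RGS19 each lost its call when any 1 replicate was left out. The ranking chose these genes for their likeness to RGS19, so their shared calls and losses without replicate 4 follow from that choice. Without replicate 2 or 3, 0 probes on the whole array were called, so those losses are not particular to these genes. The likeness rests on 3 replicates and is a description.

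**Figure D2:**
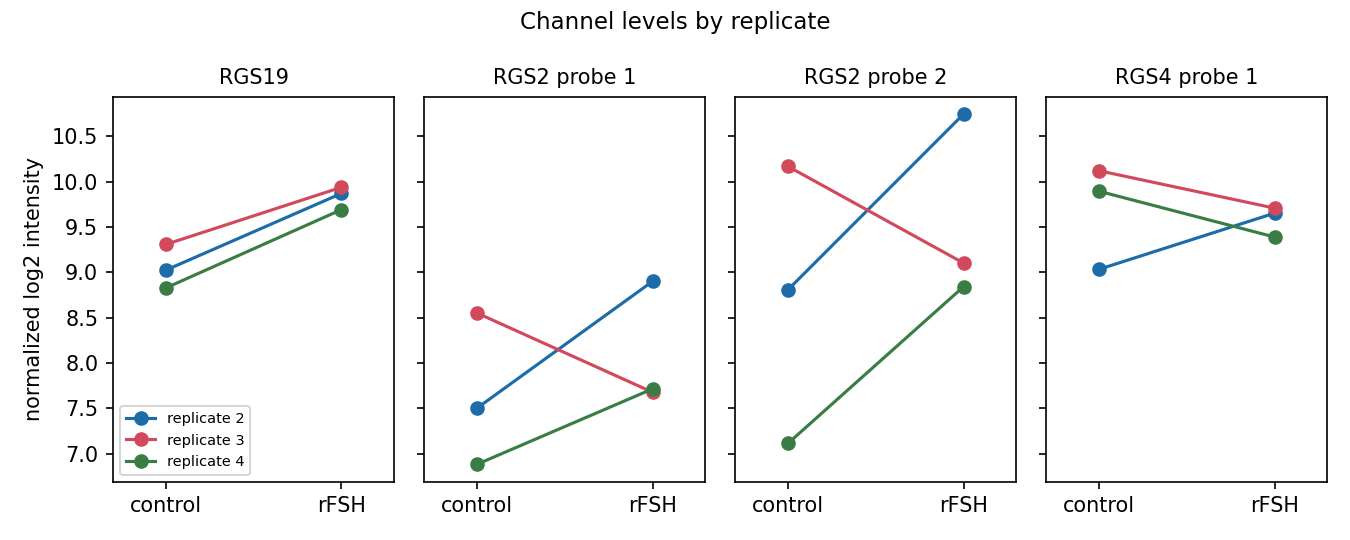
Normalized log2 intensity (vertical axis) in the control and rFSH channels for RGS19, both RGS2 probes and the brightest RGS4 probe, with 1 line per replicate joining its 2 channels. RGS19 goes up in every replicate, RGS2 goes up in replicates 2 and 4 and down in replicate 3, and RGS4 goes up in replicate 2 only; heights of different probes are not comparable.

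RGS2 acts mainly on Gq and can also restrain adenylyl cyclase, the enzyme that makes cyclic AMP. Its brighter probe, RGS2 probe 2, had log2 ratios of 1.81 and 2.08 in replicate 2, -0.86 and -1.27 in replicate 3, and 1.86 and 1.60 in replicate 4, with rFSH in Cy5 given first. RGS2 probe 1 had 1.42 and 1.38 in replicate 2, -0.73 and -1.03 in replicate 3, and 1.19 and 0.47 in replicate 4. The control channel of probe 1 fell just short of the negative control limit on the arrays of replicates 2 and 4 with rFSH in Cy3, so those ratios lie close to the detection limit. Both probes and both dye orientations gave the same signs, positive in replicates 2 and 4 and negative in replicate 3.

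The channel levels of RGS2 probe 2 were 10.75, 9.10 and 8.84 on the log2 scale with rFSH and 8.81, 10.17 and 7.11 in the control of replicates 2, 3 and 4. The groups overlapped, and the control samples alone spanned the wider range, with an SD of 1.53 against 1.03 with rFSH. Raw intensities on the 2 arrays of replicate 3 were 472 and 585 with rFSH and 1282 and 1256 in the control. In replicate 4 the control was dim, at 192 and 153 against limits of 155 and 135 from the negative controls, while rFSH read 494 and 583. In replicate 2 rFSH read 1326 and 2089 and the control 538 and 503.

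The mean log2 ratio of RGS2 probe 2 was 0.87 ± 1.68 (SD, n = 3), with a 95% interval from -0.94 to 2.68 and an adjusted p of 0.515. For RGS2 probe 1 it was 0.45 ± 1.19, with an interval from -0.83 to 1.74 and an adjusted p of 0.634. Both intervals take in 0 and reach further above it than below it. The SD of RGS2 probe 2 lay at the 99.9th percentile of all tested probes and at the 99.7th among the 1000 probes nearest in intensity. Probe 1 lay at the 99.8th and 99.4th percentiles.

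Both RGS2 probes moved furthest when replicate 3 was left out, and neither was called with any replicate left out. Taking out the lowest value raises a mean in any case. Without replicate 3, RGS2 probe 2 stood at 1.84 (adjusted p = 0.0746) and probe 1 at 1.12 (adjusted p = 0.0998). In limma without replicate 3, 0 probes on the whole array were called, and GRK5 and CXCR4 had that same adjusted p of 0.0746. Without replicate 2 the values were 0.33 and -0.02, and without replicate 4 they were 0.44 and 0.26. The authors' deposited table gave RGS2 probe 2 at 1.94 in replicate 2, -0.99 in replicate 3 and 1.45 in replicate 4, with the same signs.

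**Figure D3:**
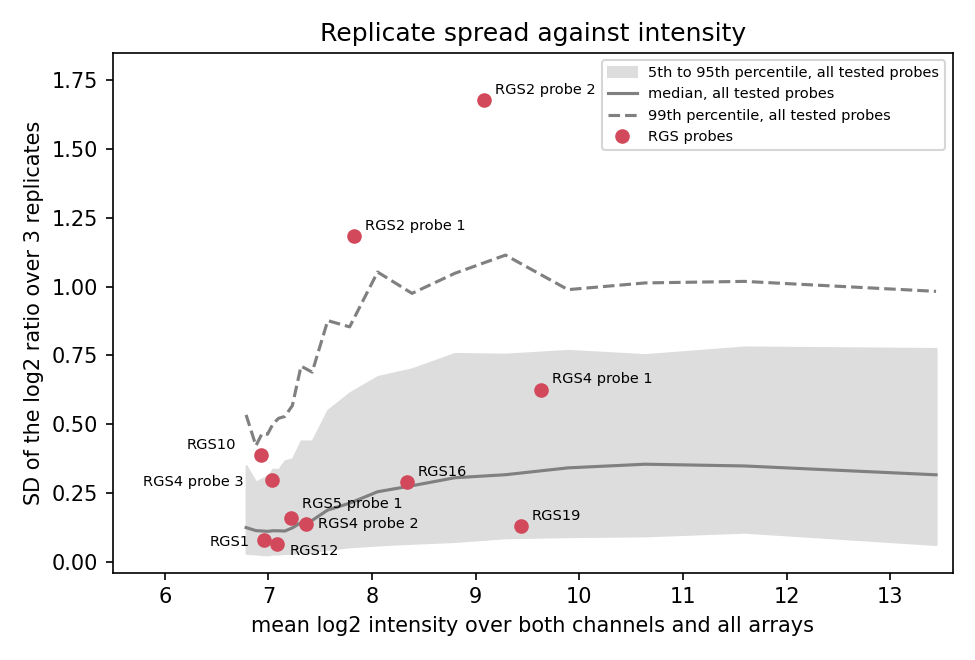
SD of the log2 ratio over the 3 replicates (vertical axis) against mean log2 intensity over both channels and all arrays (horizontal axis) for the 11 tested RGS probes. The grey band spans the 5th to 95th percentile of all tested probes in 20 bins of intensity, with the median as a solid line and the 99th percentile dashed; both RGS2 probes lie above the dashed line.

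In the mouse, RGS2 is also known from the oocyte, where it restrains release of calcium. Oocyte markers were therefore set beside RGS2. Of 14 listed, 13 had a probe and 12 could be tested, and in limma none was called in either direction, with 1, GPR3 at 0.27, at an unadjusted p under 0.05. The mean log2 ratio over those 12 genes was 0.69 in replicate 2, -0.90 in replicate 3 and 0.13 in replicate 4. Values were above 0 for 11 of 12 in replicate 2, for 4 in replicate 3 and for 9 in replicate 4.

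ZP2, a protein of the zona pellucida around the oocyte, had log2 ratios of 1.46, -3.14 and 0.22 in replicates 2, 3 and 4. KPNA7, an importin of oocytes, had 1.97, -2.11 and 0.32, and FIGLA, an oocyte transcription factor, had 1.58, -1.23 and 0.11. The signs of these 3 genes matched those of RGS2 in all 3 replicates. Their values were near 0 in replicate 4, where RGS2 probe 2 stood at 1.73. The 4 markers above 0 in replicate 3 were BMP15 (0.22), GPR3 (0.21), DAZL (0.03) and OOEP (0.01), and OOEP lay below 0 in replicates 2 and 4. ZP2 exceeded the negative controls on at most 3 arrays with rFSH and 4 in the control, and its other probe had a mean of -0.07. The summed linear levels of the 12 markers were 5304, 2247 and 1995 with rFSH and 2598, 5121 and 1797 in the control. GDF9, an oocyte-derived growth factor, exceeded the negative controls on at most 1 array with rFSH and 2 in the control. The mean over the 12 markers thus had the sign of RGS2 in all 3 replicates, though not every marker did. In replicate 4 that mean was only 0.13. The part of oocyte markers in the RGS2 values was not tested.

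**Figure D4:**
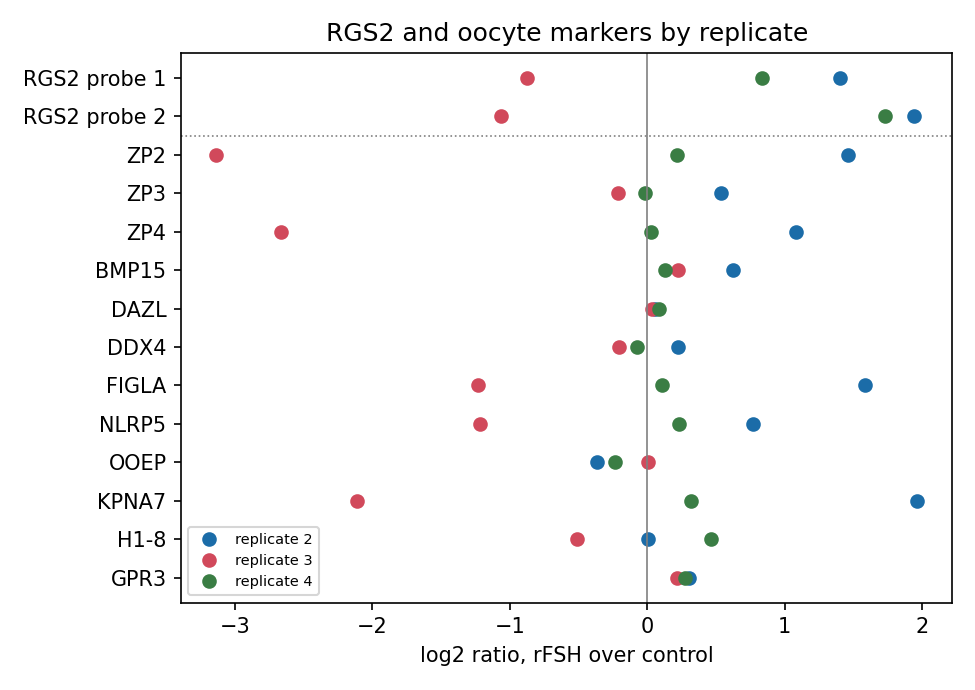
Log2 ratio of rFSH over control (horizontal axis) in each of the 3 replicates for both RGS2 probes and for the 12 tested oocyte markers. In replicate 3 RGS2 lies at -0.88 and -1.07 with ZP2, ZP4, KPNA7, FIGLA and NLRP5 also well below 0, and in replicate 4 RGS2 lies at 0.83 and 1.73 while the markers lie between -0.23 and 0.47.

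RGS4, RGS16 and RGS5, which act on Gi and Gq subunits, gave no call. RGS16 had log2 ratios of 0.35 and 0.72 in replicate 2, -0.37 and 0.29 in replicate 3, and 0.13 and 0.30 in replicate 4. One array of 6 lay below 0, and the mean was 0.24 ± 0.29 (SD, n = 3), with a 95% interval from -0.13 to 0.61 and an adjusted p of 0.388. RGS4 had 3 tested probes that disagreed in sign. The brightest, RGS4 probe 1, had 0.12 and 1.13 in replicate 2, -0.48 and -0.35 in replicate 3, and -0.69 and -0.32 in replicate 4. Replicate 2 was the only one above 0, and the mean was -0.10 ± 0.63, with an interval from -0.80 to 0.60 and an adjusted p of 0.858.

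Without replicate 3 this probe had 0.057 and without replicate 4 it had 0.10. Its highest value, in replicate 2 with rFSH in Cy3, came from the array with the lowest share of detected probes in its control channel. The probe itself exceeded the negative controls there, at 897 with rFSH and 417 in the control against limits of 216 and 264. RGS4 probe 2 had -0.12 and 0.57, 0.00 and -0.08, and -0.28 and 0.34 in replicates 2, 3 and 4, with a mean of 0.07 ± 0.14. RGS4 probe 3, which exceeded the negative controls on 3 arrays with rFSH and 5 in the control, had 0.01 and -0.60, 0.37 and -0.24, and -0.39 and -0.67, with a mean of -0.25 ± 0.30. Neither was called, with adjusted p of 0.710 and 0.363.

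RGS5 is a marker of pericytes, the cells that wrap small blood vessels. RGS5 probe 1 had 0.41 and -0.24 in replicate 2, 0.10 and 0.46 in replicate 3, and 0.11 and -0.18 in replicate 4. The arrays lay on both sides of 0, and the mean was 0.11 ± 0.16 (SD, n = 3), with a 95% interval from -0.16 to 0.37 and an adjusted p of 0.577. RGS5 probe 2 did not exceed the negative controls on any array and was not tested. Of 6 listed pericyte markers 4 could be tested, and 2 of these fell, where 4.85% of all tested named genes did. KCNJ8 had a log2 ratio of -2.07, with its rFSH channel above the negative controls on 3 of 6 arrays, and CSPG4 had -0.65. MCAM and PDGFRB were not called, at 0.45 and 0.05. The summed levels of all 4 overlapped between the groups, from 4621 to 6029 with rFSH and from 3534 to 6027 in the control. The part of these markers in the RGS5 values was not tested.

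RGS1 and RGS10 are best known from immune cells, RGS1 as a brake on chemokine receptors. RGS1 had log2 ratios of 0.32 and 0.14 in replicate 2, 0.37 and -0.18 in replicate 3, and 0.45 and -0.25 in replicate 4. The arrays with rFSH in Cy5 were all above 0, and 2 of the 3 with rFSH in Cy3 were below it. The mean was 0.14 ± 0.08 (SD, n = 3), with a 95% interval from -0.08 to 0.36 and an adjusted p of 0.378. The dye component of RGS1, taken as the part of the difference between the arrays of a swap that follows the dye, was 0.23, with an adjusted p of 0.0847.

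RGS10, a small member that acts on Gi, had 0.01 and 0.47 in replicate 2, -0.58 and -0.43 in replicate 3, and -0.46 and -0.15 in replicate 4. Replicates 3 and 4 were below 0 and replicate 2 above it. The mean was -0.19 ± 0.39, with an interval from -0.65 to 0.27 and an adjusted p of 0.579. RGS10 exceeded the negative controls on 2 of 6 arrays with rFSH and on 5 of 6 in the control, so its levels lay close to the detection limit. Of 10 leukocyte markers 6 could be tested, and in limma 0 were called, with 1 at an unadjusted p under 0.05. That marker was CD68, above the negative controls on all 6 arrays in both channels, with a log2 ratio of 1.30 ± 0.98 (SD, n = 3) and an adjusted p of 0.141. PTPRC and CD3E, at 0.09 and 0.12, exceeded the negative controls on 5 or 6 arrays of each channel. ITGAM and CD79A did not exceed the negative controls on any array, and the summed levels of the tested markers ran from 1229 to 4163 with rFSH and from 1059 to 2797 in the control. The part of these markers in the RGS1 and RGS10 values was not tested.

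RGS12 is a large protein with a second Gi-binding site and sites for further signalling proteins. Its log2 ratio was -0.45 and -0.39 in replicate 2, -0.42 and -0.40 in replicate 3, and -0.66 and 0.05 in replicate 4. One array was above 0, and the 3 replicate means were close, at -0.42, -0.41 and -0.31. Normalized log2 intensities were 6.94, 6.90 and 6.83 with rFSH and 7.35, 7.31 and 7.14 in the control. Every rFSH value lay below every control value, as for 12.4% of tested probes, and the reverse held for RGS19, as for 11.8%. The mean was -0.38 ± 0.06 (SD, n = 3), with a 95% interval from -0.59 to -0.17 and an adjusted p of 0.0715 in limma.

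The RGS12 call depended on the processing. It passed 0.05 with a normexp offset of 0, at a log2 ratio of -0.63 (adjusted p = 0.0399), and with array weights, at -0.37 (adjusted p = 0.0204). The fit with array weights takes the 6 arrays as separate values although they come from 3 replicates, so its p can be too small. Its probe was dim, above the negative controls on 4 arrays with rFSH and 5 in the control.

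RGS3, which can also bind beta and gamma subunits, and RGS14, a relative of RGS12, stayed at the level of the negative controls. RGS3 had log2 ratios of 0.12 and 0.19, -0.21 and -0.01, and -0.35 and 0.20 in replicates 2, 3 and 4. RGS14 had 0.10 and -0.33, 0.11 and 0.06, and 0.18 and 0.15. Neither side of these ratios was well above background, so they carry no fold change.

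No dye effect was called on any of the 11 tested RGS probes in limma, against 5.8% of all tested probes called brighter in Cy5 and 7.1% in Cy3. At an unadjusted p under 0.05 there were 4, namely RGS1, RGS16 and probes 1 and 3 of RGS4. The share of all tested probes with a dye effect at that level was not counted, so these 4 cannot be set against it.

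Several RGS genes are neighbours in the bovine genome. In the RefSeq gene table (assembly ARS-UCD2.0), RGS2, RGS13, RGS1, RGS21 and RGS18 follow each other with 0 protein-coding genes between them, as do RGS5 with RGS4 and RGS16 with RGS8. Within these groups, RGS2 varied between replicates while RGS1 gave 0.14 ± 0.08 and RGS18 gave 0.35 ± 0.24 (SD, n = 3), the last with an adjusted p of 0.178. RGS13 was not tested, and RGS21 and RGS8 had no named probe.

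The machinery around the RGS proteins was described with 6 gene lists holding 108 genes, of which 84 could be tested. In limma 4 were higher (4.76%) and 3 were lower (3.57%), against 3.88% and 4.85% of all 13130 tested named genes, or 8.73% in either direction. Their median log2 ratio was 0.02, against 0.01 over all named genes. Without replicate 2 or replicate 3 no list gene was called, and leaving out replicate 4 gave 3 higher and 5 lower calls.

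G protein alpha subunits, the substrates of RGS proteins, gave no call among 11 tested genes, with 1 higher and 2 lower at an unadjusted p under 0.05. The inhibitory subunits had log2 ratios of -0.75 ± 0.41 for GNAI1, -0.35 ± 0.30 for GNAI2 and -0.66 ± 0.99 for GNAI3 (SD, n = 3), with adjusted p of 0.0922, 0.219 and 0.409. GNAI1 was called with a random replicate block on the 6 arrays (adjusted p = 0.0277), with array weights (0.0281), with rFSH in Cy3 alone (0.0444) and with median centring (0.0494). The fits with the block and with weights use more arrays than replicates, so their p can be too small. The correlation within a replicate block came out at -0.39. All 3 means lay below 0, and the brightest GNAI3 probe spread from -1.67 to 0.30 over the replicates. In limma the other tested GNAI3 probes had -0.71 (adjusted p = 0.0641) and -0.46 (adjusted p = 0.307). Among Gq subunits, GNAQ had 0.00 ± 0.15 and GNA11 had 0.69 ± 0.68 on its brightest probe and 0.10 on the other. GNAS, which encodes the stimulatory subunit that FSHR couples to, had 0.04 ± 0.03 on its brightest probe. Its other probes gave -0.91 (adjusted p = 0.0426) and -0.40 (adjusted p = 0.0942), so the probes of GNAS disagreed.

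Of 16 tested beta and gamma subunits, 1 was higher (6.25%, against 3.88% of all tested named genes) and 0 were lower. GNG4, a gamma subunit, had log2 ratios of 1.47, 1.94 and 1.43 in replicates 2, 3 and 4, with an adjusted p of 0.0242. Its other probe was too dim to test. GNB5, the beta subunit that partners RGS proteins of the RGS7 group, had -0.12 ± 0.24 (SD, n = 3).

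Receptor kinases and arrestins end receptor signalling upstream of the RGS step, by marking active receptors and uncoupling them. Of 8 tested, 1 was higher (12.5%, against 3.88% of all tested named genes) and 0 were lower. GRK5, a receptor kinase, had 2.17, 2.07 and 2.13 in replicates 2, 3 and 4, a 4.36-fold increase with a mean log2 ratio of 2.12 ± 0.05 (SD, n = 3) and an adjusted p of 0.0118. Its relative GRK6 had 0.01 ± 0.07. Of the beta-arrestins, ARRB1 had 0.06 ± 0.39 and ARRB2 had -1.11 ± 0.89, the latter with an adjusted p of 0.159 and replicate values of -1.20, -1.95 and -0.17.

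Adenylyl cyclases and beta-type phospholipases C are the enzymes that Gs, Gi and Gq control. Of 8 tested, 0 were higher and 1 was lower (12.5%, against 4.85% of all tested named genes). PLCB4, a phospholipase C driven by Gq, had -1.69, -2.01 and -3.02 in replicates 2, 3 and 4, with a mean of -2.24 ± 0.69 (SD, n = 3) and an adjusted p of 0.0352. The PLCB4 call was lost without background correction (adjusted p = 0.0671) and with plain subtraction (adjusted p = 0.0503). Its other probe did not exceed the negative controls on any array.

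Among 22 other tested genes with an RGS domain or with a role in G protein cycling, 1 was higher and 0 were lower. The 1 higher made 4.55%, against 3.88% of all tested named genes. AXIN2, a scaffold of the Wnt pathway that carries an RGS-like domain, had 1.46, 0.91 and 1.37 in replicates 2, 3 and 4 and an adjusted p of 0.0306. Of the 11 RGS genes listed outside the 10 members, 8 could be tested, and in limma 0 were called. At an unadjusted p under 0.05 were RGS18 and RGS7, and RGS7, which forms a complex with the product of GNB5, had -1.16 ± 0.63 with an adjusted p of 0.0828.

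Of 19 tested receptors of the follicle, 1 was higher (5.26%) and 2 were lower (10.5%), against 3.88% and 4.85% of all tested named genes. CXCR4, the chemokine receptor for CXCL12, coupled to Gi, had a log2 ratio of 3.74 ± 0.54 (SD, n = 3) and an adjusted p of 0.0170. EDNRA, an endothelin receptor coupled to Gq, had -1.64 ± 0.39 and an adjusted p of 0.0286, and its other tested probe had -0.32. FSHR, the FSH receptor, had -0.83 ± 0.28 and an adjusted p of 0.0479, and 7 of the 15 alternatives with all replicates took its call away.

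**Figure D5:**
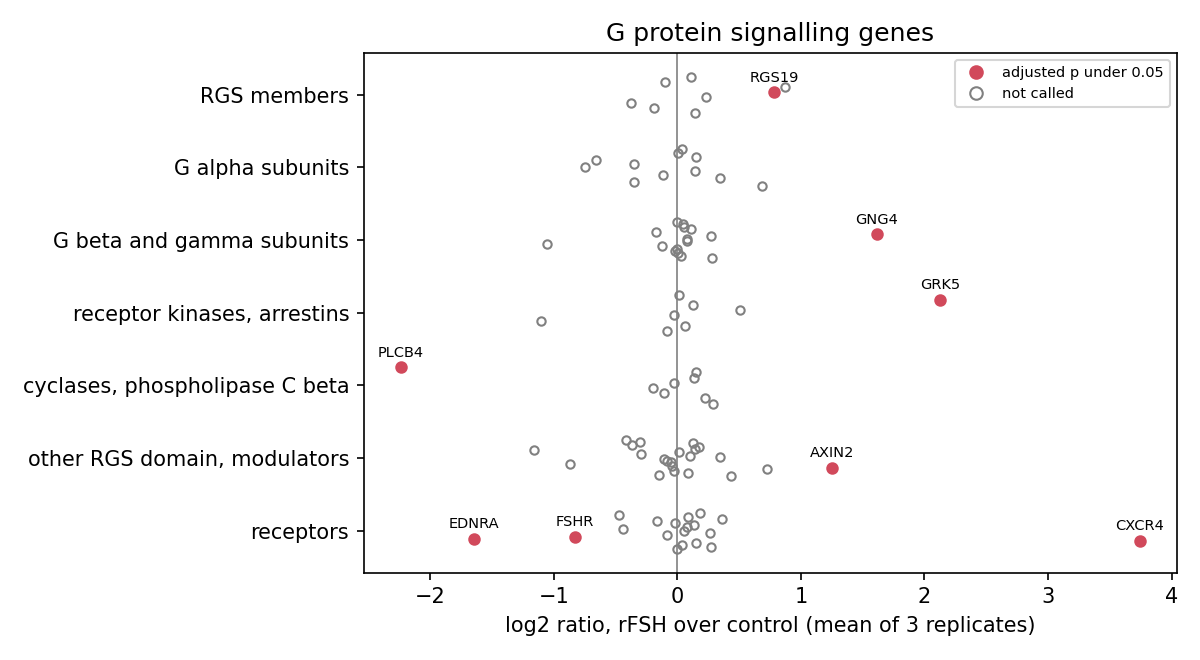
Mean log2 ratio of rFSH over control over 3 replicates (horizontal axis) for the tested RGS members and for 6 lists of G protein signalling genes (1 point per gene, spread vertically for clarity). Filled points passed an adjusted p of 0.05 in limma and are named; RGS19 is the only filled point among the RGS members.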

How the data were processed

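RNA of both groups, amplified linearly and labelled chemically per the labels' protocols, was hybridised together on 6 arrays. Per the file headers, the deposited scanner values are linear intensity of each spot and of its local background, before any normalization. The authors also deposited normalized log2 ratios of Cy5 over Cy3 in a pair of identical tables (r from 0.976 to 0.992 with the scanner values). Their normalization is not stated in these sources, and they were used as an alternative.

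Background was corrected by normexp with an offset of 50 on mean pixel intensity, followed by loess with a span of 0.3 on each array (limma 3.58.1, R 4.3.3). Probes entered the test when brighter than 153 negative control spots (their mean plus 2 SD) on 3 or more arrays of either the rFSH or the control channel. Control spots and 18 to 63 spots per array marked as ignored were dropped. After turning each ratio by its dye label and averaging the dye swap, limma (lmFit, eBayes) compared 3 replicate values with 0, with Benjamini-Hochberg adjustment over 34821 probes and a threshold of 0.05. Pairing by replicate number is thereby built into every ratio. The steps were tested on simulated data.

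For counts of genes, the brightest tested probe stood for its gene. The platform annotation gave symbols, with 21790 probes named and 22004 unnamed here. RefSeq held all 10 RGS symbols, 1524 symbols were updated through synonyms, and 241 matched nothing. The files name no genome build, so no coordinates are given; the RefSeq table (ARS-UCD2.0) served for names and gene order. Sequences were not used here. Named genes were every RGS member, 12 G protein signalling genes called or not, up to 4 called genes of each list, and the 4 genes most like each called RGS gene, of which there was 1. Cell type markers, RGS7, RGS18 and the genes set beside RGS2 lie outside this rule and were chosen after their values were seen. The members, lists and tests were chosen with earlier results of these data known, so they are no independent support. The alternatives concerned background, normalization, filter, arrays, pairing, weights, threshold and replicates.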

Additional observations from a re-analysis of the deposited data

Results flagged for a closer look

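Among 35 sets of 6 array values searched for an array that lies apart, 1 was found, and chance alone gives about 1 in 20. RGS14 had a log2 ratio of -0.33 on the replicate 2 array with rFSH in Cy3, while the other 5 arrays lay between 0.06 and 0.18. The probe did not exceed the negative controls on any array, and that array had the lowest share of detected probes, 38.2% in its control channel.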

How the results depend on the processing

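Of the alternatives, slide as a block was not run because no file names a slide, and the cause of any change was not tested. RGS19 kept its call under 14 of 15 alternatives that held all replicates (0.60 to 0.96, adjusted p from 0.00168 to 0.0553). The looser threshold of 0.1 is among the 15 and cannot take away a call made at 0.05. With no replicate block (unpaired channels), RGS probes and genes called higher went from 1 to 0; with a random replicate block on 6 arrays they stayed at 1 (adjusted p = 0.00455). Leaving out any 1 replicate gave 0 RGS calls higher and 0 lower in limma, with 2 to 4 RGS probes at an unadjusted p under 0.05. Averaging the probes of a gene left 1 RGS gene higher and 0 lower. RGS probes and genes called lower went from 0 to 1 with offset 0, with array weights and at an adjusted p of 0.1, the gene being RGS12; array weights and the 6-array fits use more arrays than replicates. Over all tested probes, 1035 higher and 1173 lower became 570 and 482 without background correction, 1565 and 1833 with rFSH in Cy5 alone, 2674 and 3381 with the random replicate block, 3558 and 4455 with array weights, 468 and 558 unpaired, 2330 and 2770 at 0.1, and 0 to 510 and 0 to 675 without a replicate. Higher calls were 1581 with rFSH in Cy3 alone; lower calls were 1863 with offset 0, 714 with plain subtraction and 1848 with median centring. The alternatives for list genes were chosen after seeing the data: 4 higher became 13 with array weights and 0 to 3 without a replicate, and 3 lower became 1 without background correction or with subtraction, 6 with rFSH in Cy3 alone, 9 with the random replicate block or at 0.1, 11 with weights and 0 to 5 without a replicate.

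Signs turned only for small or uncalled ratios. With rFSH in Cy3 alone, RGS4 probe 1 gave 0.15, RGS1 -0.092, GNAS -0.089, ARRB1 -0.35 and GNAQ -0.0045. With rFSH in Cy5 alone, RGS4 probe 2 gave -0.13, GNB5 0.0072 and GRK6 -0.080. Without the replicate 2 array with rFSH in Cy3, RGS4 probe 2 gave -0.045, GRK6 -0.044 and GNAQ -0.021. GNAQ also gave -0.0029 with offset 0, -0.0056 with subtraction, -0.0065 with the authors' values, -0.062 with median pixels and -0.018 with weights, and GNAS gave -0.0067 with median centring. Leaving out a replicate gave ranges of -0.46 to 0.10 for RGS4 probe 1, -0.0065 to 0.12 for RGS4 probe 2, -0.021 to 1.12 for RGS2 probe 1, -0.21 to 0.015 for GNB5, -0.021 to 0.047 for GRK6, -0.073 to 0.076 for GNAQ and -0.16 to 0.21 for ARRB1. Dim probes (RGS1, RGS2 probe 1, RGS10, RGS12, RGS4 probe 3) limit what these arrays can show.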

Other observations

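RGS2 was not called and so had no place in the ranking of like genes; the ranking was added for RGS2 probe 2 after its values were seen. The named genes with the smallest root mean square difference from it over the 6 arrays were BCL2L11 (0.688), KDR (0.693), BDNF (0.728) and NRCAM (0.749). None of the 4 was called. BCL2L11, which promotes apoptosis, had log2 ratios of 1.41, -0.41 and 1.01 in replicates 2, 3 and 4. KDR, a receptor of vascular endothelial growth factor and one of the endothelial markers listed here, had 1.09, -0.33 and 1.49. BDNF, a neurotrophin, had 1.20, -0.20 and 1.55, and NRCAM, a cell adhesion molecule, had 0.91, -0.68 and 1.42. The ranking chose these genes for their likeness to RGS2, so the shared pattern is a description.

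Markers of theca and smooth muscle gave 3 lower calls among 7 tested genes, where 4.85% of all tested named genes were called lower. ACTA2 had a log2 ratio of -1.29 and CNN1 one of -1.53. MYH11, at -0.68, exceeded the negative controls on no array with rFSH and on 4 in the control. It entered the test only through the channel where it was higher, so its lower call is no support for a fall. The theca genes CYP17A1 and INSL3 were not called, at 0.05 and 0.09, nor were TAGLN at -0.06 and DES at 0.08. The summed linear levels of the 7 did not overlap, from 6814 to 10259 with rFSH and from 15191 to 24241 in the control. Among single tested probes, 12.4% had every rFSH level below every control level. Such a sum is weighted to its brightest genes and does not show a fall of every marker. The part of these markers in the RGS values was not tested. Endothelial and red cell markers gave 0 calls in limma among 6 tested genes, with 1 at an unadjusted p under 0.05. That marker was VWF, above 0 on all 6 arrays, with a log2 ratio of 0.59 ± 0.25 (SD, n = 3) and an adjusted p of 0.0741. PECAM1 did not exceed the negative controls on any array.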
